A study of Homo sapiens with 9 samples.

Results

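YAP and TAZ drive a small, well-known set of genes through the DNA-binding TEAD factors, and 10 genes of this system were followed in H460 cells carrying an inducible RUNX3. The 10 genes were chosen by name: the target genes CYR61 (now CCN1), CTGF (now CCN2), ANKRD1, AMOTL2, AXL and LATS2, the factors TEAD1 and TEAD4, and the coactivators YAP1 and WWTR1 (the gene of TAZ). The choice was made with earlier results of these data known, so their ranks among all genes are descriptive only. All 10 were found among the 19869 genes of the K94/171R table, and each had a mean FPKM of at least 1 there. In the table of the other lines, which holds 24331 genes under locus identifiers, 1 of the 10 was used, CYR61, because the rows read here from the table that pairs identifiers with symbols cover chromosome 1 only; the other 9 genes were not analysed in those lines.

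H460 is a human large cell lung cancer line grown from a pleural effusion. RNA-seq gave 9 libraries, 1 per condition, so no difference below has a replicate check and no p-value was computed. H460-vec is the control line without a fusion protein, and the labels give its genotype as RUNX3 inactivation. H460-ERT2-RUNX3 expresses wild-type RUNX3 fused to ERT2, a ligand-binding domain that keeps its partner inactive until 4-OHT, a tamoxifen metabolite, is added. H460-ERT2-RUNX3-K94/171R, called K94/171R here, carries the same fusion with both lysines replaced by arginine. Each line was deprived of serum for 24 h and sampled at 0 h, or 8 h or 16 h after 10% serum was given back. The protocol names serum with and without 1 μM 4-OHT; the treatment label of the 8 h and 16 h libraries is TAM, read here as serum with 4-OHT. On this reading, serum and 4-OHT cannot be told apart within a line. Whether a stable line is 1 clone is not given in the sources used here.

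The Hippo pathway is a chain of kinases that ends in LATS1 and LATS2, which phosphorylate YAP and TAZ and hold them in the cytoplasm. When the kinases are off, as in spread or serum-fed cells, YAP and TAZ enter the nucleus, bind TEAD factors and activate genes of growth, adhesion and matrix. Much of this control acts on protein location, which RNA levels do not show.

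FPKM counts the fragments of a gene relative to the length of its transcript and the size of the library, so levels of different genes can be set side by side on it. Changes are given within a line as log2 of the ratio of a treated library to the 0 h library, with 0.05 added to both FPKM values, a scale that understates how far genes of low FPKM move. The K94/171R libraries were normalised in a table of their own, apart from the other 6, and no level was compared across the 2 tables. The H460-ERT2-RUNX3 library at 16 h stood apart from the rest. Across genes, Pearson's r between libraries on the log2 FPKM scale was 0.744 to 0.854 in the 5 pairs that include it, 0.901 to 0.952 in the other 10 pairs of that table, and 0.973 to 0.979 in the 3 pairs of K94/171R. These correlations are across genes, which are not independent replicates. The result for CYR61 at 8 h does not use that library.

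CYR61 encodes a secreted matricellular protein that binds integrins and is a standard readout of YAP and TEAD activity. The gene lies at chr1:86046444-86050272 on the plus strand of hg19. In H460-vec cells its FPKM was 16.4 at 0 h, 17.5 at 8 h and 16.8 at 16 h. The cells with wild-type RUNX3 had 33.5, 4.01 and 5.00 at the same times. CYR61 was thus level in the control line and fell to a low plateau in the line with wild-type RUNX3, where both treated libraries lay below every H460-vec library and the untreated one lay above them. In K94/171R cells FPKM was 30.3 at 0 h, 22.6 at 8 h and 19.6 at 16 h, a gradual decline that ended at 64.5% of the starting level. In H460-ERT2-RUNX3 cells 12.0% of the starting level was left at 8 h and 14.9% at 16 h. In bulk RNA, fewer cells with the transcript and less transcript per cell cannot be told apart.

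The log2 changes of CYR61 in H460-ERT2-RUNX3 cells were -3.05 and -2.73 at 8 and 16 h, against 0.10 and 0.03 in H460-vec cells. With every library scaled to 1 FPKM sum, the H460-vec value at 16 h turned to -0.072. Between 8 and 16 h CYR61 changed by 0.31 in H460-ERT2-RUNX3 cells, so its low level was reached by the first time point. This small rise was lost when every library was scaled to 1 FPKM sum, where the change from 0 h was -3.22 at both times. At 8 h few genes of the line had moved as far: 0.426% of 11491 genes with a mean FPKM of at least 1 were lower by at least 2, and 0.278% had a change as low as that of CYR61. At 16 h, when expression had shifted widely in this line, 6.96% were lower by at least 2 and 3.19% were as low as CYR61. In H460-vec cells the same threshold was passed downward by 0.174% of genes at 8 h and 0.183% at 16 h, and CYR61 was not among them. The difference between the lines was -3.14 at 8 h and -2.77 at 16 h. Genes that fell by at least 2 and also lay at least 2 below their change in H460-vec made up 0.305% at 8 h and 5.98% at 16 h, and CYR61 was among them both times.

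The starting levels differed too. At 0 h CYR61 was 2.05-fold higher in H460-ERT2-RUNX3 than in H460-vec cells, and 2.10% of genes had a ratio as high. At 8 h it was 4.37-fold higher in H460-vec cells, a log2 ratio of -2.11 of H460-ERT2-RUNX3 over H460-vec, and 0.783% of genes had a ratio as low. At 16 h it was 3.36-fold higher in H460-vec cells, and 11.2% of genes had a ratio as low. The lower level after treatment was therefore present against the control at the same time as well as against the line's own start, but it was smaller by that measure. This comparison was chosen after seeing the data. By rank on the FPKM scale, CYR61 in H460-ERT2-RUNX3 cells went from above 79.0% of genes at 0 h to above 23.3% and 30.2% at 8 and 16 h. In H460-vec cells it stayed above 62.1% to 63.3%.

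In K94/171R cells the log2 changes of CYR61 were -0.42 at 8 h and -0.63 at 16 h, short of a change of 1. Of 11105 genes with a mean FPKM of at least 1 in this line, 12.2% had a change as low at 8 h and 3.05% at 16 h. For genes with a mean FPKM of 10 to 30, the class of CYR61, the central 95% of changes ran from -0.70 to 0.75 at 8 h and from -0.58 to 0.62 at 16 h. CYR61 lay inside this range at 8 h and just below it at 16 h. These level classes were set once the data had been seen. The difference in CYR61 between the lines with wild-type and K94/171R RUNX3 was not tested.

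None of the 10 genes passed a change of 2 in either direction in K94/171R cells at 8 or 16 h, and none passed 1. Across all 11105 genes, 0.414% passed 2 at 8 h and 0.261% at 16 h, and 3.18% and 2.09% passed 1, and against shares this small a count of 0 of 10 says nothing particular about these genes. By any amount, 8 of the 10 were lower than at 0 h at 8 h, and 8 were lower at 16 h, against 5442 and 5765 of all 11105 genes. With every library scaled to 1 FPKM sum, 8 of 10 were lower at 8 h and 6 at 16 h, against 4958 and 4212 of all genes. The median change of the 10 genes was -0.17 at 8 h and -0.18 at 16 h, beside 0.0079 and -0.011 over all genes. With that scaling it was -0.14 and -0.087, beside 0.045 and 0.080 over all genes. The 6 target genes had medians of -0.26 and -0.37, with 5 of them lower at each time, and the 4 factors and coactivators had medians of -0.16 and -0.03, the latter turning to 0.06 with that scaling.

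CTGF, a secreted matricellular protein of the same family as CYR61, was the most abundant of the 10 genes on the FPKM scale. It lies at chr6:132269316-132272512 on the minus strand of hg19, within the span of the long noncoding RNA gene LINC01013 on the opposite strand. Libraries were made with a stranded kit, but the strand setting used in counting is not given in the sources used here. The same limit holds for AXL, LATS2, TEAD1, YAP1 and WWTR1, which also overlap annotated genes on the opposite strand, among them LATS2-AS1 and WWTR1-AS1. AMOTL2, LATS2, TEAD1 and WWTR1 overlap small genes or pseudogenes on their own strand, such as RPL39P5 at AMOTL2. FPKM of CTGF in K94/171R cells was 73.5 at 0 h, 38.2 at 8 h and 55.3 at 16 h. The level dipped at 8 h and was partly regained at 16 h, unlike that of CYR61, which was lowest at 16 h. The log2 changes were -0.94 and -0.41, and 2.43% and 8.16% of genes had a change as low. At 8 h this was the lowest value of the 10 genes and lay below the central 95% of genes with a mean FPKM of 30 to 100, which ran from -0.64 to 0.70. CTGF was 2.43-fold more abundant than CYR61 at 0 h, 1.69-fold at 8 h and 2.83-fold at 16 h, so the pair did not keep a fixed ratio.

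ANKRD1, a nuclear ankyrin repeat protein first known from heart muscle, was the least abundant of the 10. It lies at chr10:92671853-92680844 on the minus strand of hg19. FPKM in K94/171R cells was 1.37, 1.85 and 0.911 at 0, 8 and 16 h. It was highest at 8 h, where CTGF was lowest, and the log2 changes of 0.42 and -0.57 lay within the central 95% of genes with a mean FPKM of 1 to 3, which ran from -1.48 to 1.08 at 8 h and from -1.13 to 1.18 at 16 h. AXL, a receptor tyrosine kinase that binds GAS6, lies at chr19:41725128-41767671 on the plus strand of hg19. Its FPKM was 2.19, 2.14 and 3.50. AXL was the 1 target gene above its starting level at 16 h, with log2 changes of -0.04 and 0.66, and 3.21% of genes were as high at 16 h. Both genes rest on low FPKM, and their changes lay inside the range of genes at that level.

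AMOTL2 and LATS2 act back on the pathway, since angiomotin proteins hold YAP outside the nucleus and LATS2 phosphorylates it. AMOTL2, at chr3:134074189-134094321 on the minus strand of hg19, had an FPKM of 27.9, 24.6 and 22.2 at 0, 8 and 16 h in K94/171R cells. LATS2, at chr13:21547175-21635725 on the minus strand, had 9.42, 7.47 and 8.69. AMOTL2 declined step by step, as CYR61 did, and LATS2 dipped at 8 h, as CTGF did, but by less. The log2 changes were -0.18 and -0.33 for AMOTL2 and -0.33 and -0.11 for LATS2, all within the central 95% of genes of their level. With every library scaled to 1 FPKM sum, the change of LATS2 at 16 h was -0.022.

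**Figure D1:**
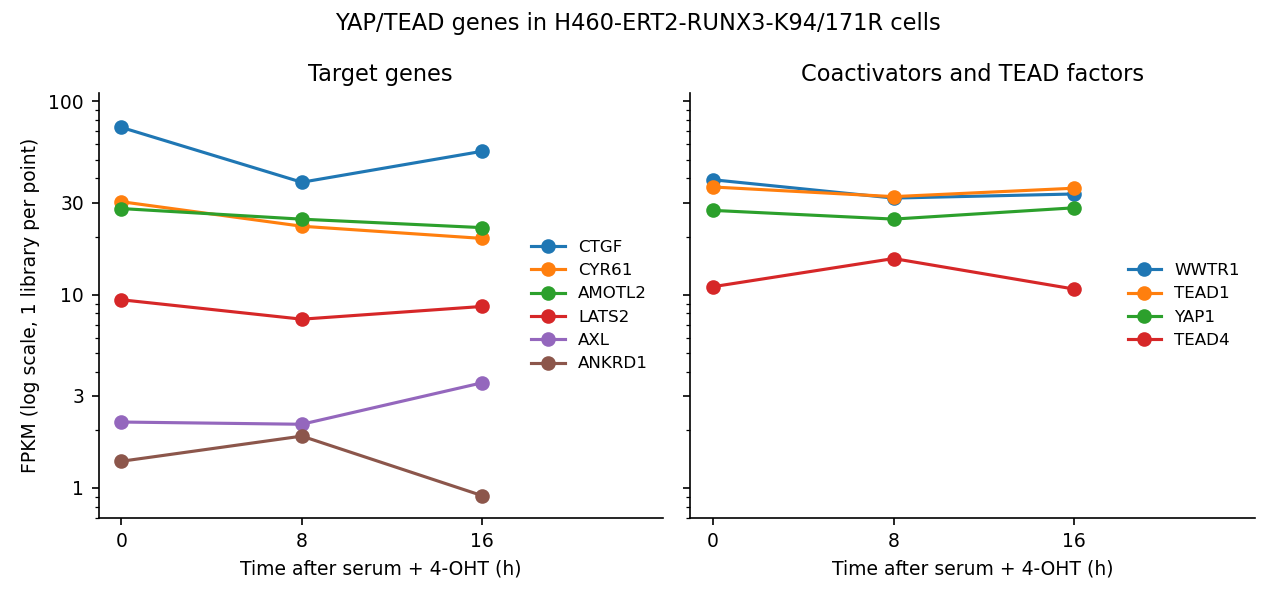
FPKM (vertical axis, log scale) of the 6 target genes (left) and the 4 coactivators and TEAD factors (right) in K94/171R cells at 0, 8 and 16 h (horizontal axis), 1 library per point. The target genes span FPKM 0.911 to 73.5, while WWTR1, TEAD1 and YAP1 stay between 24.6 and 39.3.

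Promoters of CTGF, ANKRD1 and AMOTL2 are shown because they hold the letters that TEAD factors read. RefSeq promoter sequences (GRCh38.p14, 250 bases before to 50 after the start) were matched for 7 of the 10 genes, with 10 start sites in all, and were not used for CYR61, TEAD1 and TEAD4. The 250 bases before the start are printed 5′ to 3′ on the strand of the gene, with each GGAATG, or CATTCC where it is on the other strand, in capitals. CTGF is at chr6:131951373-131951622 (minus strand), ANKRD1 at chr10:90921088-90921337 (minus strand), and the second start site of AMOTL2 at chr3:134374448-134374697 (minus strand).
CTGF: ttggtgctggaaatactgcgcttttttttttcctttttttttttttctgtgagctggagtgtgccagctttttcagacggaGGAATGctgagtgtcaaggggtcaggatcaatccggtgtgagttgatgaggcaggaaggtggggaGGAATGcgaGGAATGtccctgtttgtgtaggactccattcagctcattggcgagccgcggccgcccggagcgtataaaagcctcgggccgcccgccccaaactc
ANKRD1: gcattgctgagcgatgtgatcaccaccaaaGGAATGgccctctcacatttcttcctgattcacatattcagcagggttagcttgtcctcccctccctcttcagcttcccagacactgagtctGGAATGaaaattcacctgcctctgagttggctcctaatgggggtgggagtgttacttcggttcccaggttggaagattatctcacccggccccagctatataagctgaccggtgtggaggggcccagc
AMOTL2: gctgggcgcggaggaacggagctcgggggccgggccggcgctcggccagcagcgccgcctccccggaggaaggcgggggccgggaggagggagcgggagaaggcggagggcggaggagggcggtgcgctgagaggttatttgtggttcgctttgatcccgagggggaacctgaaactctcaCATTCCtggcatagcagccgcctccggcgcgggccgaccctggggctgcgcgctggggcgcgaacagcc
CTGF has 3 matches, whose first bases lie 169, 104 and 95 bases before the start. ANKRD1 has 2, at 220 and 128 bases before it, and AMOTL2 has 1, at 69 bases before it on the other strand. CTGF and ANKRD1 had the lowest and the highest change at 8 h among the 6 targets in K94/171R cells. AMOTL2 lay between them, as did CYR61, AXL and LATS2. The first start site of AMOTL2, not printed here, had no match.

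Within the full 300 bases, 6 of the 7 genes had at least 1 match to GGAATG on either strand, in 6 of the 10 start sites. Of 35116 RefSeq promoters of the same length, 14.0% had at least 1, 1.37% had at least 2 and 0.128% had at least 3. YAP1 had 1 match at 162 bases before its start, AXL 1 at 212 bases before its second start and LATS2 1 within the first bases after its start, while these letters are not in either window of WWTR1. The letters TGTGGT or TGCGGT, a core that RUNX factors read, occurred on either strand in 3 of the 10 start sites, 1 each of AMOTL2, WWTR1 and LATS2, and in 19.6% of all promoters. A match is a run of letters and was not tested as a binding site.

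TEAD1 and TEAD4 bind DNA and bring YAP and TAZ to their targets. TEAD1, at chr11:12695968-12966284 on the plus strand of hg19, had an FPKM of 36.1, 32.2 and 35.6 at 0, 8 and 16 h in K94/171R cells. TEAD4, at chr12:3068496-3149842 on the plus strand, had 11.0, 15.4 and 10.7. TEAD1 was nearly level, and TEAD4 was higher at 8 h and back at its starting level at 16 h. The log2 changes were -0.17 and -0.02 for TEAD1 and 0.48 and -0.04 for TEAD4; at 16 h both turned slightly positive, to 0.07 and 0.05, with every library scaled to 1 FPKM sum. TEAD1 was 3.28-fold more abundant than TEAD4 at 0 h, 2.09-fold at 8 h and 3.33-fold at 16 h. TEAD2 had an FPKM of 7.40, 8.47 and 8.09 and TEAD3 of 4.34, 4.75 and 4.02, so TEAD1 was the main TEAD transcript at every time. Its share of the summed FPKM of all 4 was 61.3% at 0 h, 52.9% at 8 h and 60.9% at 16 h, and the sum itself stayed between 58.4 and 60.8.

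YAP1 and WWTR1 encode the coactivators. YAP1, at chr11:101981178-102104155 on the plus strand of hg19, had an FPKM of 27.3, 24.6 and 28.2 at 0, 8 and 16 h in K94/171R cells. WWTR1, at chr3:149235022-149454501 on the minus strand, had 39.3, 31.6 and 33.2. Both were well expressed and close to level, with WWTR1 the higher of the pair each time. The ratio of WWTR1 to YAP1 was 1.44 at 0 h, 1.28 at 8 h and 1.18 at 16 h. The log2 changes of -0.15 and 0.04 for YAP1 and of -0.31 and -0.24 for WWTR1 lay within the central 95% of genes of their level. With every library scaled to 1 FPKM sum, the changes at 16 h were 0.14 for YAP1 and -0.15 for WWTR1.

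**Figure D2:**
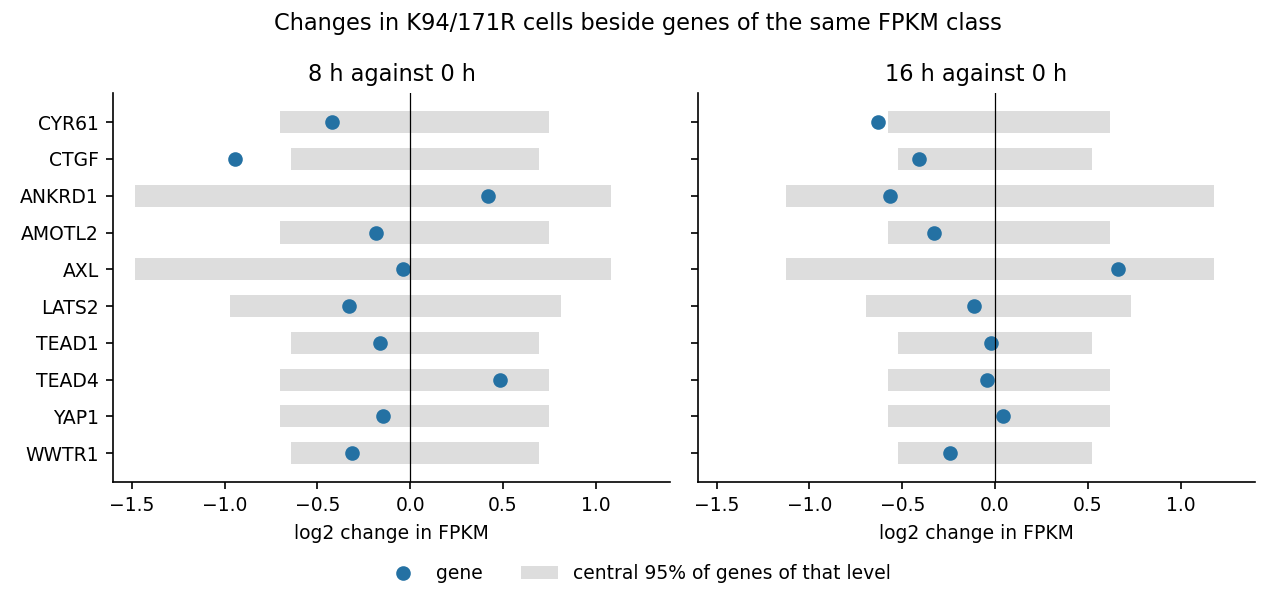
Log2 change in FPKM (horizontal axis) of each of the 10 genes (points) in K94/171R cells at 8 h (left) and 16 h (right) against 0 h, with the central 95% of changes among genes of the same FPKM class as grey bars. CTGF at 8 h (-0.94) and CYR61 (-0.63) and AXL (0.66) at 16 h are the largest changes of the targets, and the first and second of these lie outside their bars.

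Further genes of the pathway were taken from lists written from general knowledge. Of 16 other YAP and TAZ targets, 15 had a mean FPKM of at least 1 in K94/171R cells and F3 did not. Their median change was -0.23 at 8 h and -0.10 at 16 h, with 12 and 9 of 15 below 0, beside 49.0% and 51.9% of all genes. None passed 1, as 3.18% and 2.09% of all genes did, and 0 of 15 is close to what these shares give. With every library scaled to 1 FPKM sum, the median was -0.19 at 8 h and -0.010 at 16 h. On that scale 11 and 8 were below 0, beside 44.6% and 37.9% of all genes, and these shares serve for the lists that follow too. FJX1, a secreted relative of the fly kinase Four-jointed, had an FPKM of 93.9, 47.7 and 48.5, with log2 changes of -0.98 and -0.95. IGFBP3, which binds insulin-like growth factors, had 139, 172 and 84.4, with changes of 0.30 and -0.72. NUAK2, a kinase of the AMPK family, had 9.61, 5.98 and 7.01, with changes of -0.68 and -0.45. The courses of these genes differed: FJX1 was low from 8 h on, IGFBP3 was low at 16 h alone, and NUAK2 was lowest at 8 h. NT5E, an ecto-enzyme that makes adenosine, had 19.1, 16.3 and 14.9, with changes of -0.23 and -0.35.

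TGFB2 and GADD45A of this list are also paired with symbols in the other table. TGFB2, a ligand of the TGF-beta receptors, had an FPKM of 11.9, 8.33 and 11.2 in H460-vec cells and of 16.0, 6.28 and 3.58 in H460-ERT2-RUNX3 cells. Its log2 changes in the latter were -1.34 and -2.15, so it was lower at both times and passed 2 at 16 h, later than CYR61, when 6.96% of genes in this line were lower by at least 2 and 5.90% were as low as TGFB2. In K94/171R cells TGFB2 had an FPKM of 23.0, 19.2 and 27.2. GADD45A, a stress-induced gene that restrains the cell cycle, had an FPKM of 15.9, 80.1 and 131 in H460-ERT2-RUNX3 cells, 9.66, 10.2 and 10.7 in H460-vec cells, and 22.9, 16.4 and 28.7 in K94/171R cells. It rose where CYR61 fell, with log2 changes of 2.33 and 3.04, and was close to level in the control line. In H460-ERT2-RUNX3 cells 0.775% of genes were as high at 8 h and 2.52% at 16 h. CYR61, TGFB2 and GADD45A, the only YAP and TAZ targets read in the wild-type line, therefore did not share a direction. The other targets of the lists were not read there.

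Of 19 genes of the Hippo core and of TEAD partners, 16 had a mean FPKM of at least 1 in K94/171R cells, and VGLL1, a TEAD cofactor, was listed at 0 in each library. Their median change was 0.057 at 8 h and 0.061 at 16 h, with 7 of 16 below 0 at each time and none past 1. Of all genes, 49.0% and 51.9% were below 0, and 3.18% and 2.09% passed 1. A count of none among 16 is close to what these shares give. With every library scaled to 1 FPKM sum, the medians were 0.094 and 0.15, and 7 and 4 were below 0. FRMD6, a FERM domain protein upstream of the kinases, had an FPKM of 64.8, 32.8 and 37.8, with log2 changes of -0.98 and -0.77. The kinase gene STK3 had 10.7, 12.3 and 12.5, the TEAD cofactor gene VGLL4 had 13.5, 12.0 and 15.0, and the scaffold gene SAV1 had 26.0, 17.9 and 23.5. FRMD6 stood out in this list, while the kinases and their scaffolds were close to level at 16 h.

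Among the other CCN genes, 2 of 4 had a mean FPKM of at least 1. WISP2 (now CCN5) had an FPKM of 70.2, 51.8 and 78.8 in K94/171R cells and NOV (now CCN3) had 6.99, 7.62 and 8.29. WISP3 was listed at 0 in each library, and WISP1 at 0, 0.160 and 0.0912. WISP2 dipped at 8 h as CTGF did, with log2 changes of -0.44 and 0.17, but ended above its starting level. The median of the 2 genes was -0.16 at 8 h and 0.20 at 16 h.

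SRF with its cofactors of the MRTF family activates CYR61, CTGF and cytoskeletal genes in many cells after serum. Of 13 genes of this group, 11 had a mean FPKM of at least 1 in K94/171R cells. Their median changes were -0.21 and -0.25, with 8 and 9 of 11 below 0 at 8 and 16 h, beside 49.0% and 51.9% of all genes. With every library scaled to 1 FPKM sum, the medians were -0.18 and -0.16, and 7 and 8 were below 0. The actin gene ACTG1 had an FPKM of 1861, 2162 and 1090, and ACTB had 2271, 2564 and 1592. FHL2, a LIM domain cofactor, had 15.7, 15.3 and 8.76. These genes were at or above their starting level at 8 h, apart from a small difference in FHL2, and lower at 16 h, with log2 changes of -0.77 for ACTG1, -0.51 for ACTB and -0.84 for FHL2. SRF itself had 9.51, 6.93 and 6.36, with changes of -0.45 and -0.58. None of the 11 passed 1, as 3.18% of all genes did at 8 h and 2.09% at 16 h, which is close to what these shares give.

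**Figure D3:**
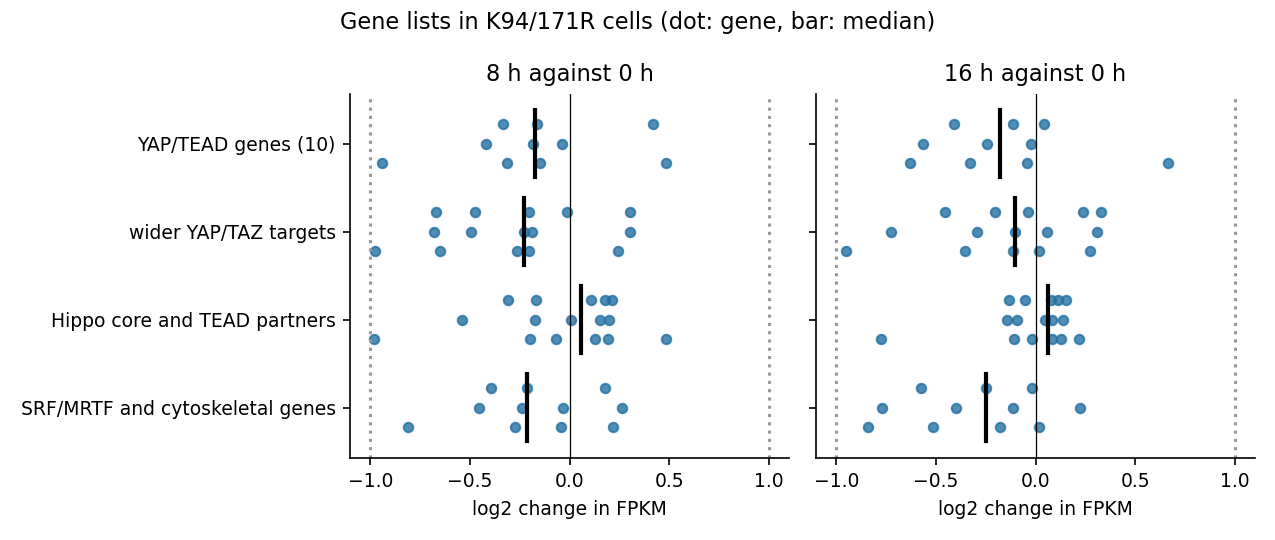
Log2 change in FPKM (horizontal axis) of genes with a mean FPKM of at least 1 (points) in K94/171R cells at 8 h (left) and 16 h (right), by gene list, with the median as a black bar and changes of -1 and 1 dotted. The lists are the 10 YAP/TEAD genes, the wider targets, the Hippo core with TEAD partners and the SRF/MRTF genes. None of their genes passes 1, where 3.18% of all genes do at 8 h and 2.09% at 16 h. The medians of the lists lie between -0.25 and 0.061.

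RUNX3 in the K94/171R table had an FPKM of 2.12 at 0 h, 0.712 at 8 h and 2.11 at 16 h, and its changes were -1.51 and -0.01 on the log2 scale. How many of these reads come from the fusion was not tested, and RUNX3 was not read in the other lines. ESR1, the gene from which ERT2 derives, had 3.22, 2.04 and 3.61. RUNX1 had 4.76, 3.61 and 4.54, and CBFB, the common partner of RUNX proteins, had 44.6, 50.9 and 44.3. RUNX3, RUNX1 and ESR1 were lower at 8 h and close to their starting levels at 16 h, and RUNX2 had a mean FPKM below 1. The median of the 4 genes used was -0.52 at 8 h and -0.01 at 16 h, with 1 of 4, RUNX3, lower by more than 1 at 8 h, where 3.18% of all genes passed 1 in either direction. The median at 16 h was 0.083 with every library scaled to 1 FPKM sum. On that scale 0 of the 4 were below 0, beside 37.9% of all genes. Without it, 3 of 4 were, beside 51.9% of all genes.

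Markers were read in the K94/171R table to check the cell type. The epithelial keratins were abundant: KRT8 had an FPKM of 662, 698 and 569, KRT18 of 593, 554 and 353, and KRT19 of 382, 309 and 351. The other epithelial markers were at or near 0, with EPCAM at 0, 0.248 and 0.313 and CDH1 at 0.0227, 0 and 0. The cells were thus rich in keratins but lacked these adhesion molecules of epithelia at the RNA level. The 6 fibroblast markers summed to 9.78, 7.77 and 11.3, led by COL3A1 at 6.17, 5.60 and 8.26, with LUM at 0. Of 4 endothelial markers 3 were matched, and they summed to 0, 0.00933 and 0.0409. The 5 immune markers summed to 57.1, 47.4 and 56.1, nearly all of it CD68, a lysosomal gene, at 56.9, 47.2 and 56.1, with CD3E at 0.

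The genes most like CYR61 were sought among 513 genes on chromosome 1 that are matched between the tables and have a mean FPKM of at least 1 in both, by the root mean square difference over the 6 log2 changes. The 5 nearest were MARC1 (0.787), ARTN (0.842), RNF207 (0.843), TGFB2 (0.857) and FAM213B (0.877). MARC1, a mitochondrial reductase, had an FPKM of 3.69, 1.41 and 0.289 in H460-ERT2-RUNX3 cells, 7.82, 6.92 and 6.47 in H460-vec cells, and 3.40, 3.01 and 2.74 in K94/171R cells. ARTN, a ligand of the GDNF family, had 3.36, 1.49 and 0.546 in H460-ERT2-RUNX3 cells. Each of the 5 was lower at 16 h than at 8 h in H460-ERT2-RUNX3 cells, whereas CYR61 was no lower at 16 h, and their changes there at 8 h, from -1.36 to -1.04, were well short of the -3.05 of CYR61. Even the nearest genes therefore followed CYR61 only loosely.

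Of the 513 genes, 2 were lower by at least 2 at 8 h in H460-ERT2-RUNX3 cells, CYR61 and EFNA1, and 40 were at 16 h. CYR61 was the 1 gene that passed at both times. EFNA1, an ephrin ligand named after its values had been seen, had an FPKM of 51.9, 12.6 and 20.7 in H460-ERT2-RUNX3 cells, 36.6, 15.4 and 24.4 in H460-vec cells, and 25.2, 9.52 and 13.3 in K94/171R cells. EFNA1 was lower at 8 h in every line. CYR61 at 8 h was low in H460-ERT2-RUNX3 cells, level in H460-vec cells and lower by 0.42 on the log2 scale in K94/171R cells. In K94/171R cells RUNX3 itself had an FPKM of 0.712 at 8 h, against 2.12 at 0 h. Whether this bears on the course of CYR61 was not tested.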

How the data were processed

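RNA was sequenced on a NextSeq500 from TruSeq Stranded mRNA libraries. Reads were trimmed with Cutadapt, mapped to hg19 with STAR (2.5.0 in the submitters' processing notes) and quantified with Cuffdiff (2.2.1), and the authors deposited FPKM per gene. Read numbers are unknown, and FPKM summed to between 554359 and 780952 per library. Changes were computed with Python 3.11.15 and pandas 2.3.3, with a pseudocount of 0.05 and genes with a mean FPKM of at least 1. The threshold of 2 is the log2 threshold of the study, with a threshold of 1 beside it. The study also set limits on false discovery rate and p-value, which were not applied here. Ensembl identifiers of the K94/171R table gave symbols for 19494 of 19869 genes. Of the locus identifiers of the other table, 1144 were paired with symbols through the rows of the study's supplementary data that were read here, which hold part of that table and chromosome 1 alone. Gene positions are from GENCODE on hg19. Members and lists were chosen with earlier results of these data known. Named genes are the 10 members, up to 4 genes per further list with the largest absolute change at 16 h in K94/171R cells, list genes paired in both tables and the 5 genes most like CYR61. Outside this rule, TEAD2 and TEAD3 are named to complete the TEAD family, EFNA1 was named after its values had been seen, and list genes with a low mean FPKM and markers are named where a list is accounted for. Alternatives were other pseudocounts (1 and 0.01), 2 rescalings, other filters and a threshold of 1.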

Additional observations from a re-analysis of the deposited data

Results flagged for a closer look

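CYR61 was lower after treatment in H460-ERT2-RUNX3 cells and slightly higher in H460-vec cells at both times in the FPKM as deposited. The H460-vec change at 16 h was -0.072 with every library scaled to 1 FPKM sum, so opposite signs held at 8 h but not at 16 h under that scaling. The change in H460-ERT2-RUNX3 cells minus that in H460-vec cells was -3.1429 at 8 h and -2.7675 at 16 h on the log2 scale. With 1 library per condition the difference was not tested. Over genes with a mean FPKM of at least 1, 0.453% had a difference as low at 8 h and 3.70% at 16 h. The H460-vec changes, 0.10 and 0.03, lay close to 0.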

How the results depend on the processing

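The CYR61 changes in H460-ERT2-RUNX3 cells stayed past 2 with pseudocounts of 1 and 0.01 and under both rescalings, where they ran from -3.22 to -2.78 (8 h) and from -3.22 to -2.52 (16 h). In K94/171R cells they stayed between -0.43 and -0.38 at 8 h and between -0.63 and -0.54 at 16 h. With every library scaled to 1 FPKM sum, 3 of 28 results changed sign: CYR61 in H460-vec cells at 16 h (-0.072), and TEAD1 (0.072) and TEAD4 (0.051) in K94/171R cells at 16 h. All 3 lay close to 0 as deposited, and this rescaling moves every gene of a library by 1 factor. The other 25 kept their direction and their side of the threshold there, as did all 28 with a pseudocount of 1 and with the median ratio, and the 26 run with a pseudocount of 0.01. The counts of the 10 genes called, 0 at both times, were the 2 results run with a threshold of 1. The same rescaling moved the median change of all genes in H460-ERT2-RUNX3 cells to -0.17 (8 h) and -0.52 (16 h), and left it within 0.1 of 0 in the other lines. None of the 10 genes passed 1 in K94/171R cells. The share of all genes past the threshold ranged from 0.414% to 3.18% at 8 h and from 0.261% to 2.09% at 16 h in K94/171R cells over the filters and thresholds tried, from 0.557% to 1.79% and from 0.600% to 2.74% in H460-vec cells, and from 1.44% to 7.51% and from 10.1% to 39.6% in H460-ERT2-RUNX3 cells. No paired analysis was possible because each condition has 1 library. The number of reads is unknown, so no counting error can be given, and ANKRD1 and AXL rest on the lowest FPKM.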
